A study of Mus musculus with 10 samples.

Results

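The data cover 5 genes of the regulated secretory pathway in the hypothalamic paraventricular nucleus (PVN) of mouse pups: the granin genes Scg2 (secretogranin II) and Chgb (chromogranin B), the peptide-trimming enzyme gene Cpe (carboxypeptidase E) and the neuropeptide genes Nts (neurotensin) and Cartpt (cocaine and amphetamine regulated transcript). They were chosen by spot name, as secretory genes said to have spots brighter than empty ones, so their brightness is a description and carries no test. The 5 genes had 9 spots of the 24192 on each array, and every one of the 9 was read. Scg2 had 2 spots, Chgb 1, Cpe 3, Nts 1 and Cartpt 2. No spot was named neurotensin; Nts was reached through a spot that carried a RIKEN cDNA clone name, which RefSeq lists as its synonym.

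The study set pups kept from their mother for 24 h against pups that were not separated, with litters allotted to the conditions at random. The nucleus was punched with a 1 mm corer from 100 µm sections of the brains of 6 animals per group, the punches of 2 animals were joined, and the amplified RNA of the 3 resulting samples per group was combined into 1 pool of 40 µg. The separated and the non-separated pool were hybridised together on 10 spotted arrays: 5 had the separated pool labelled with the red dye Cy5 (the Cy5 orientation) and 5 had it labelled with the green dye Cy3 (the Cy3 orientation). The arrays are technical repeats of 1 comparison between 2 pools, so each p-value below concerns array error and not the spread between animals or litters, which no array measured. Strain, age and sex are not given in the sources used here. In punched tissue, fewer cells of a type and less RNA per cell cannot be told apart.

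Neurons that secrete peptides pack them into dense-core granules. Granins are acidic proteins that aggregate with prohormones in the trans-Golgi network and help to form these granules; secretogranin II and chromogranin B are themselves cut into smaller peptides. Prohormone convertases cut the precursors at pairs of basic residues, and carboxypeptidase E then removes the basic residues left at the cut end. Neurotensin and the peptides of Cartpt are made this way; in the hypothalamus both are known for a part in feeding and in the stress axis, and Cartpt products reduce food intake in rodents.

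The promoters of these genes are shown because several granin and neuropeptide genes are textbook targets of cAMP signalling. Of the members, 3 share the cAMP response element marked below. RefSeq windows (GRCm38.p6) of 250 bases before to 50 bases after the gene start were available for 4 of the 5 genes; Cpe had none in the table. Letters in capitals mark the cAMP response element TGACGTCA or, for Nts, the AP-1 site TGACTCA, which lies there on the opposite strand. The 250 bases before each start are printed on the gene's own strand: chr1:79440027-79440276 (minus strand) for Scg2, chr2:132781392-132781641 (plus strand) for Chgb, chr13:99900684-99900933 (minus strand) for Cartpt and chr10:102490419-102490668 (minus strand) for Nts.
Scg2: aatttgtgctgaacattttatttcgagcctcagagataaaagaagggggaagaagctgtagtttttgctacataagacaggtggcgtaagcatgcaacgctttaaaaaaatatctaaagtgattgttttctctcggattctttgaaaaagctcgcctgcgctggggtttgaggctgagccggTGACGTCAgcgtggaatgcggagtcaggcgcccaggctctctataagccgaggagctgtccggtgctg
Chgb: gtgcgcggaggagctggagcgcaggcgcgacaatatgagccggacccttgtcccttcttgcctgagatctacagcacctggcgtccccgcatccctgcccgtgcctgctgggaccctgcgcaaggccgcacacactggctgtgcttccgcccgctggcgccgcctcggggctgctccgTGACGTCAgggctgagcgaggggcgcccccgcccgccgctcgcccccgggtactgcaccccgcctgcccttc
Cartpt: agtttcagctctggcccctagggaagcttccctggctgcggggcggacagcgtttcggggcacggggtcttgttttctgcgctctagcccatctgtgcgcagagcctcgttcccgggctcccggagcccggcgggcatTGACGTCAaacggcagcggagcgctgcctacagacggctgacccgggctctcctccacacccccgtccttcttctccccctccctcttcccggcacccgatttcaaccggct
Nts: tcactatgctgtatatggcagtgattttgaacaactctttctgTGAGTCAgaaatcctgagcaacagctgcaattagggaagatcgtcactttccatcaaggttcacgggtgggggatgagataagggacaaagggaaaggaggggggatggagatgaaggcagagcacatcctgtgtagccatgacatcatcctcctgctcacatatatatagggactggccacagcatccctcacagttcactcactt
The full TGACGTCA element began 68 bases before the start of Scg2, 72 before that of Chgb and 112 before that of Cartpt. Among the 27025 genes with a window, 2.03% held it on either strand. TGACGTCA is the same on both strands and does not overlap TGACTCA. The AP-1 letters of Nts lay 207 bases before its start and were found in 5.95% of genes. None of the 4 windows held the exact letters TATAAA, which 15.7% of genes held. Variants of these letters were not sought. GC content was 50.7% for Scg2, 72.7% for Chgb, 66.0% for Cartpt and 49.0% for Nts. A match is a match of letters in a window and says nothing about binding.

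Spots were set against the empty spots of the same array. A spot counted as above empty spots where its raw intensity passed the 95th percentile of empty spots in both channels on at least 8 of 10 arrays, which 8.32% of the 22818 spots other than controls did. By this rule 4 of the 9 spots passed, 1 each for Scg2, Chgb, Cpe and Nts. The first Scg2 spot, the first Cpe spot and the Nts spot passed on 10 arrays, and the Chgb spot on 8, just inside the rule. Cartpt lay just outside: its first spot passed on 6 arrays and its second on 4, or on 8 and 7 where 1 channel was enough. Cartpt thus did not pass the rule in both channels, while its first spot passed where 1 channel was enough. The second Scg2 spot and the third Cpe spot passed on no array, and the second Cpe spot on 2. None of the 9 passed the 99th percentile of empty spots on 8 arrays, which only 22 of the 22818 spots did. That percentile was 26101 to 40907 scanner units in Cy5 and 20762 to 47531 in Cy3.

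Raw intensity, in scanner units, was 2244 to 3483 in Cy5 (median 2765) and 3632 to 7402 in Cy3 (median 6349) for the first Scg2 spot. Chgb gave 1212 to 4761 in Cy5 (median 2720) and 2526 to 12027 in Cy3 (median 5504). The first Cpe spot gave 2130 to 17833 in Cy5 (median 12031) and 3134 to 36431 in Cy3 (median 27812). These 3 spots differed in how steady they were: the Scg2 spot stayed within a narrow band, while 1 array lay far below the others for Cpe. Nts gave 1037 to 4376 in Cy5 (median 2698) and 2306 to 8169 in Cy3 (median 5105). The first Cartpt spot gave 654 to 3945 in Cy5 (median 2189) and 1258 to 9051 in Cy3 (median 4151), and its second spot 657 to 2026 (median 1761) and 1465 to 4336 (median 2825). The dim second Scg2 spot had medians of 138 in Cy5 and 322 in Cy3, and the third Cpe spot medians of 41.3 and 115. No member spot was saturated. Levels of different spots depend on their probes and are not compared with each other.

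**Figure D1:**
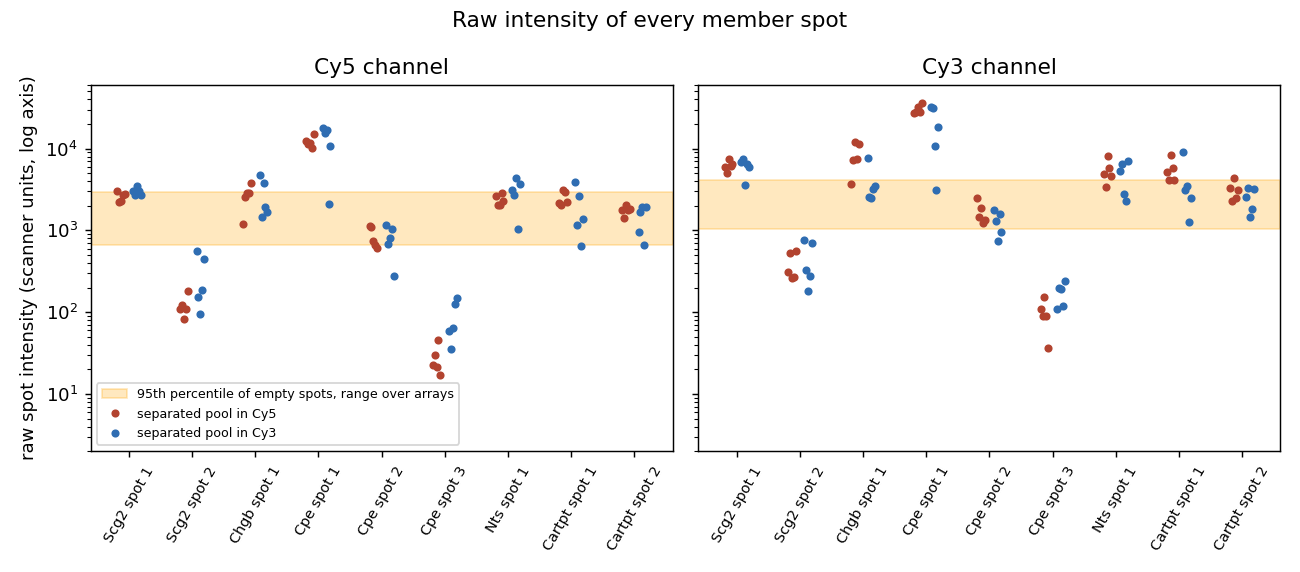
Raw spot intensity (scanner units, log axis) of the 9 spots in the Cy5 channel (left) and the Cy3 channel (right); each point is 1 array, coloured by dye orientation, and the band is the range over arrays of the 95th percentile of empty spots. The second Scg2 spot and the third Cpe spot lie below the band in both channels, and 1 array of the first Cpe spot, at 2130 in Cy5, lies below its other arrays.

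Ratios are log2 values of separated over non-separated, given as the average of the 2 orientation means ± SD over 10 arrays (n = 10 technical repeats). Directions follow the dye named for each pool in the labels. Under these dyes the authors' deposited value table ran the opposite way, as non-separated over separated, on all 10 arrays; were the array titles to name the pool in Cy5 instead, every direction below would turn. A spot was called where it was at least 1.5-fold different with the same sign on all 10 arrays (the fold rule), or where limma gave a Benjamini-Hochberg adjusted p under 0.05 over all 22818 spots (the limma rule). The fold rule called 0.254% of spots (0.0745% higher, 0.18% lower) and the limma rule 0.364% (0.0877% higher, 0.276% lower). No member spot was called by either rule. At an unadjusted limma p under 0.05 the members had 3 of 9 spots, the Chgb spot and both Cartpt spots, where 15.1% of all spots did so. Among the 1899 spots above empty spots, 680 did so. Of the 4 member spots above empty spots, only the Chgb spot did. None of the 9 had the same sign on all 10 arrays, which 1.32% of all spots and 6.85% of those above empty spots had.

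Scg2, whose product is the precursor of the peptide secretoneurin, leaned toward the separated pool on its bright spot. The log2 ratios were 0.24, 0.03, -0.07, -0.02 and 0.11 in the Cy5 orientation and 0.13, 0.24, 0.48, 0.26 and 0.22 in the Cy3 orientation. Values were above 0 on 8 of 10 arrays, and the 5 Cy3 values were all above 0 while the Cy5 values lay around 0. The mean was 0.16 ± 0.16, or 1.12-fold, with a 95% limma interval of -0.01 to 0.34 and an adjusted p of 0.376. The dim second spot lay on the other side, at -0.24 ± 0.43 with 8 of 10 arrays below 0 (interval -0.52 to 0.04, limma adjusted p = 0.409). Its arrays ran from -0.89 to 0.74, and it was not above empty spots on any of them.

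Chgb, the other granin, leaned toward the non-separated pool. Its log2 ratios were -0.39, -0.30, -0.46, -0.20 and -0.25 in the Cy5 orientation and -0.33, -0.38, -0.19, -0.09 and 0.16 in the Cy3 orientation. The value was below 0 on 9 of 10 arrays, the exception being replicate 5 of the Cy3 orientation. The mean was -0.24 ± 0.18, 1.18-fold lower, with a limma interval of -0.43 to -0.06 and an adjusted p of 0.211 over all spots. The interval of this single spot left out 0, but the adjusted value did not pass, and its sign was not shared by all 10 arrays. With only the 1899 spots above empty spots tested, the limma adjusted p of Chgb was 0.0686; 14.3% of those spots passed there.

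Cpe, the carboxypeptidase, showed no call on any of its 3 spots. The bright spot gave -0.15, -0.34, -0.11, -0.48 and -0.25 in the Cy5 orientation and 0.13, 0.07, 0.06, -0.28 and 0.05 in the Cy3 orientation. All 5 Cy5 values were thus below 0 and 4 of the 5 Cy3 values above it, with orientation means of -0.27 and 0.01. The difference between orientations did not pass for Cpe (limma adjusted p of the dye term = 0.365), while the dye term passed for 5.49% of all spots. The mean was -0.13 ± 0.21 (interval -0.31 to 0.05, limma adjusted p = 0.498). The second spot lay at 0.11 ± 0.39 and the third at -0.06 ± 0.64, with limma adjusted p-values of 0.734 and 0.920. Their arrays ran from -0.44 to 0.81 and from -0.80 to 1.18, so a difference of the size seen on the bright spot was not detectable on the dim ones.

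Nts, which encodes the precursor of neurotensin and neuromedin N, was spread around 0. Its log2 ratios were 0.37, 0.43, -0.38, 0.17 and 0.31 in the Cy5 orientation and -0.32, 0.05, -0.22, 0.31 and 0.04 in the Cy3 orientation. Both orientations held values on each side of 0. The mean was 0.08 ± 0.29 (interval -0.15 to 0.31, limma adjusted p = 0.791), so differences of up to 1.24-fold higher lie within the array error of Nts.

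Cartpt leaned toward the separated pool on both of its spots, without passing either rule. The first spot gave -0.01, 0.17, 0.18, 0.23 and 0.41 in the Cy5 orientation and 0.16, 0.21, 0.79, 0.10 and -0.06 in the Cy3 orientation. The second gave 0.29, 0.43, 0.51, 0.58 and 0.52 in the first orientation and 0.31, -0.27, -0.04, 0.61 and -0.16 in the second. The first spot was above 0 on 8 arrays and the second on 7, and on the second spot 3 of the Cy3-orientation arrays fell below 0. Means were 0.22 ± 0.24 (interval 0.00 to 0.43, limma adjusted p = 0.328) and 0.28 ± 0.32 (interval 0.06 to 0.50, limma adjusted p = 0.224), or 1.16-fold and 1.21-fold. The 2 spots differed by -0.06 ± 0.42 on the same array (exact sign-flip permutation test over 10 arrays, two-sided, adjusted p = 0.693).

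**Figure D2:**
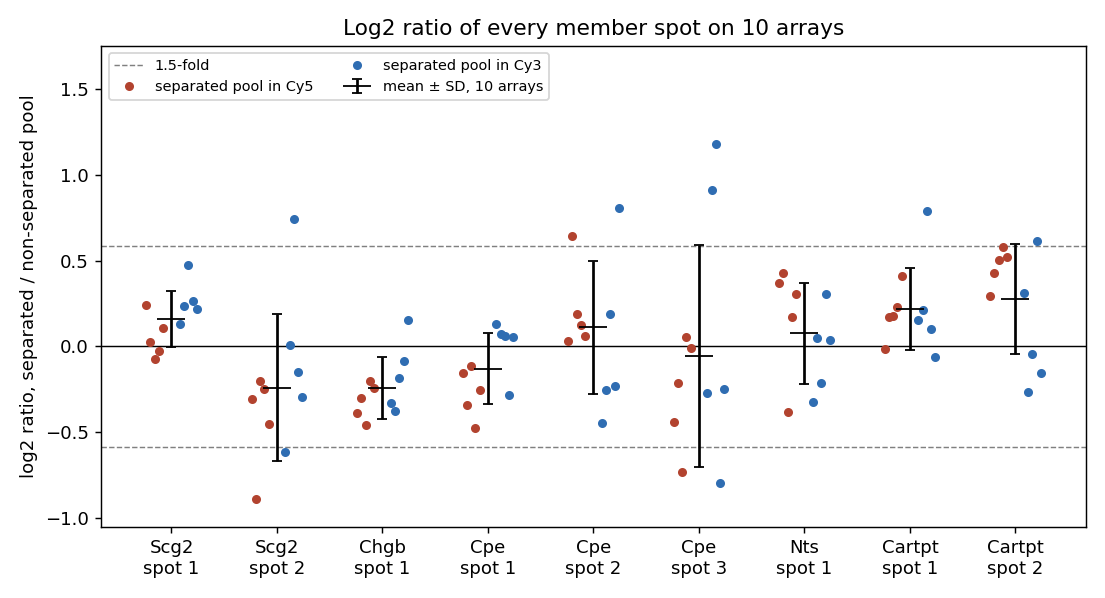
Log2 ratio of separated over non-separated for the 9 spots on the vertical axis; each point is 1 of 10 arrays, coloured by dye orientation, the black mark is the mean ± SD over 10 arrays, and dashed lines mark 1.5-fold. Chgb has 9 of 10 arrays below 0 and the first Scg2 spot 8 of 10 above it, and all means lie inside the dashed lines.

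Because both pools lay on every array, ratios of 2 members can be set against each other array by array. This comparison was added after the values were seen, so its p-values describe these arrays and are no independent support. It covered 15 differences, 10 between the brightest spots of 2 genes and 5 between spots of 1 gene, each tested with an exact sign-flip permutation test over 10 arrays (two-sided, smallest possible p 0.00195) and adjusted over the 15 by Benjamini-Hochberg. The brightest spots of the 2 granins differed. Scg2 minus Chgb was 0.40 ± 0.19, from 0.06 to 0.66, and above 0 on 10 of 10 arrays. The exact permutation p was 0.00195, and 0.0220 after adjustment. The difference was 0.38 in the Cy5 orientation and 0.43 in the Cy3 orientation. Such a difference was not rare: of all pairs of differently named spots above empty spots, 6.22% had a difference of 1 sign on all 10 arrays, and 4.58% had one at least as large as that between Scg2 and Chgb.

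A further 3 gene pairs passed the same exact permutation test, each with an adjusted p of 0.0220. Of all pairs of differently named spots above empty spots, 10.8% reached an unadjusted p as low as that of these pairs, and 26.9% had one under 0.05. Scg2 minus Cpe was 0.29 ± 0.19 and above 0 on 9 arrays. Chgb minus Cartpt was -0.46 ± 0.31 and Cpe minus Cartpt -0.35 ± 0.30, each below 0 on 9 arrays. Both are read against the first Cartpt spot, which passed the rule on empty spots on 6 arrays only. The call of Cpe minus Cartpt was lost with print-tip loess (-0.21, exact permutation p = 0.0625, unadjusted) and in the authors' deposited table (-0.20, exact permutation p = 0.0762, unadjusted). Such a difference is one between the ratios of 2 spots: it does not say which of them changed, and a difference between the spots themselves cannot be told apart from one between the genes. Scg2 minus Cartpt was -0.06 ± 0.23 and ran from -0.31 to 0.28 over arrays (adjusted p = 0.569, exact permutation). Chgb minus Cpe was -0.11 ± 0.27, from -0.46 to 0.28 (adjusted p = 0.361, exact permutation), and Chgb minus Nts -0.32 ± 0.32 (adjusted p = 0.0537, exact permutation). The 3 other pairs, all with Nts, had adjusted p-values of 0.330 to 0.569.

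The same test also separated the 2 spots of Scg2 from each other, at 0.40 ± 0.34 and above 0 on 9 arrays (adjusted p = 0.0293, exact permutation). That call was lost with print-tip loess (exact permutation p = 0.0566, unadjusted), in the authors' deposited table (exact permutation p = 0.0527, unadjusted) and with median centring, where the difference was 0.23 (exact permutation p = 0.205, unadjusted). The spots of this 1 gene thus differed by about as much as the brightest spots of Scg2 and Chgb. The second Scg2 spot lay at -0.24, as the Chgb spot did, and was not above empty spots. Differences between the 3 Cpe spots ran from -0.24 to 0.17 in the mean, with adjusted p-values of 0.289 to 0.707 (exact permutation).

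**Figure D3:**
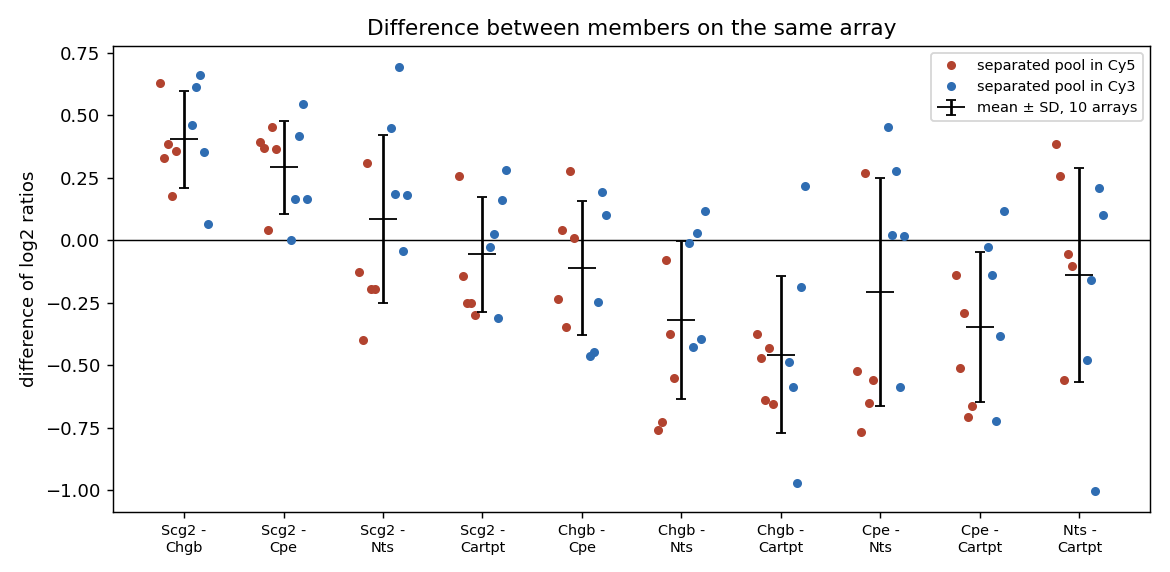
Difference between the log2 ratios of the brightest spots of 2 genes on the same array; each point is 1 of 10 arrays, coloured by dye orientation, and the black mark is the mean ± SD. Scg2 minus Chgb is above 0 on 10 of 10 arrays, and the 3 pairs of Nts with Scg2, Cpe and Cartpt spread widely on each side of 0.

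The other genes of the pathway stood in a list of granule proteins, processing enzymes, peptide precursors and receptors, of which 57 had a matched spot name (78 spots). Each was read from its brightest spot. No list gene was called by either rule, against backgrounds of 0.254% and 0.364%; 12 of 57 had an unadjusted limma p under 0.05, beside 15.1% of all spots. In all, 25 lay above 0 and 32 below, with a median log2 ratio of -0.05 where all spots had 0.001. Medians were -0.07 for 14 granule proteins, -0.02 for 15 processing enzymes, -0.09 for 25 peptide precursors and -0.02 for 3 receptors and sorting proteins. The median of the 5 members was 0.08.

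Of the 57, 5 were above empty spots: Rab3a, Resp18, Atp6ap2, Furin and Nppa, the last of these named by similarity of an expressed sequence. Furin, a convertase of the trans-Golgi network that cuts precursors at basic sites, lay at -0.43 ± 0.16 and below 0 on 10 of 10 arrays, with orientation means of -0.44 and -0.43; its limma adjusted p was 0.0656. The Furin value was under 1.5-fold, and its other, dim spot lay at 0.40 ± 0.97. Furin passed the limma rule under 5 of 23 alternatives and did not under the other 18, with adjusted p-values from 0.0136 to 0.345. The lowest came from testing only spots above empty spots in both channels, where 14.3% of all spots passed; the others were the filter on either channel, print-tip loess, median centring and the authors' deposited table. Resp18, a protein of peptide-secreting cells, lay at -0.34 ± 0.21 and below 0 on 9 of 10 arrays (limma adjusted p = 0.0990), and passed under 3 of the 23 alternatives, with adjusted p-values from 0.0231 to 0.648. Rab3a, a GTPase of vesicle release, lay at 0.13 ± 0.19, Atp6ap2, an accessory protein of the vacuolar proton pump, at -0.05 ± 0.52, and Nppa, the atrial natriuretic peptide precursor, at 0.04 ± 0.24.

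The other convertases and granins did not pass the rule on empty spots: Scg5 passed on 7 of 10 arrays, Scg3 on 5, Pcsk2 on 4, and Pam, Chga and Vgf on none. Pcsk2, the neuroendocrine convertase, lay at -0.16 ± 0.37 on its brightest spot and passed the dye term (limma adjusted p = 0.0455), with orientation means of -0.48 and 0.17. The other Pcsk2 spots lay at 0.08 ± 0.39 and -0.11 ± 0.57. Pam, the enzyme that amidates peptide ends, lay at -0.32 ± 0.61 on its brighter spot and at 0.10 ± 1.01 on its other, both dim. Chga and Vgf, further granin family genes, lay at -0.14 ± 0.96 and -0.39 ± 1.11, with SDs larger than their means. Scg3 lay at 0.08 ± 0.42 and Scg5, the chaperone of the neuroendocrine convertase, at -0.35 ± 0.75; both passed the dye term, at limma adjusted p-values of 0.0355 and 0.00661. The Scg5 orientation means were -1.01 and 0.32, of opposite sign. Among peptide genes of the nucleus itself, Avp (vasopressin) lay at -0.53 ± 0.49 and below 0 on 9 of 10 arrays, Oxt (oxytocin) at -0.31 ± 0.92 and Trh (thyrotropin-releasing hormone) at -0.13 ± 0.60, and none was above empty spots. The neurotensin receptor gene Ntsr2 lay at -0.35 ± 0.51, with 8 of 10 arrays below 0. Pcsk1, Ntsr1 and Crh had no matched spot name and were not analysed here.

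**Figure D4:**
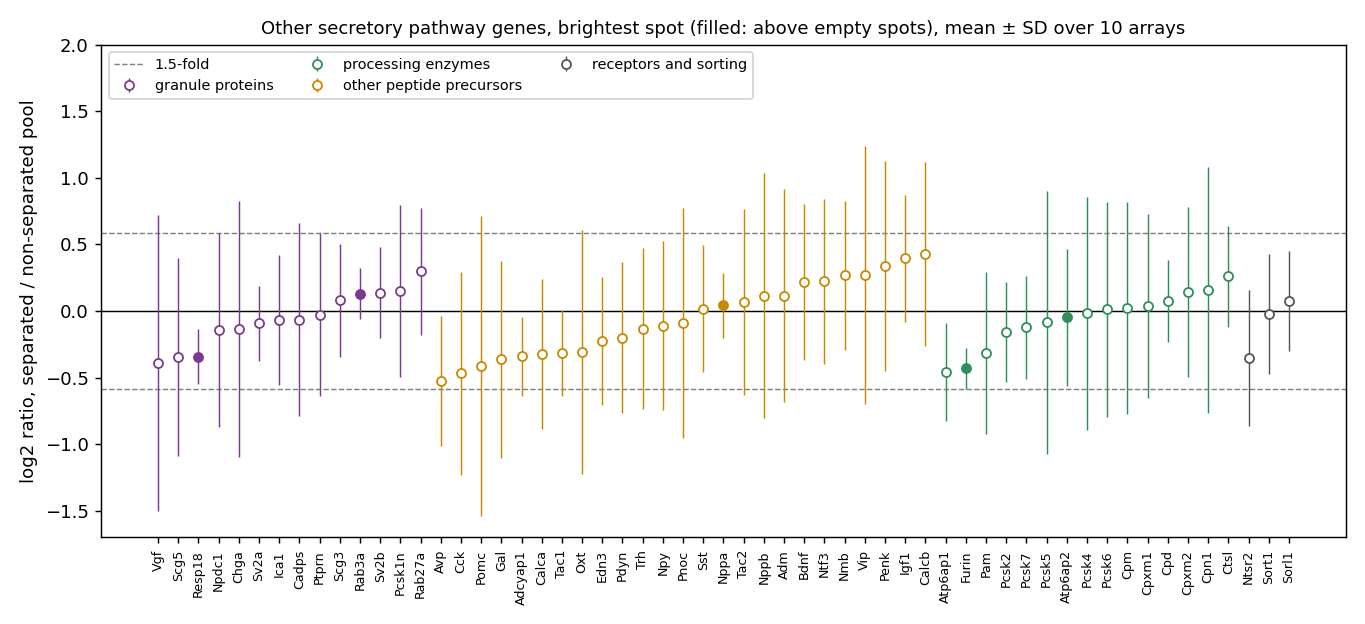
Mean log2 ratio of separated over non-separated ± SD over 10 arrays for the brightest spot of 57 other secretory pathway genes, coloured by role and ordered by value within each role; filled points passed the rule on empty spots and dashed lines mark 1.5-fold. All 57 means lie inside the dashed lines, from -0.53 to 0.43, and Furin is the filled point at -0.43.

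The cAMP response element letters were also sought in the promoters of the list. Of 51 list genes with a window, 1 held TGACGTCA, namely Sst, the somatostatin gene, at 0.02 ± 0.48. The 50 without it had a median log2 ratio of -0.07. Among the members, the 3 genes that held it had ratios of 0.16 (Scg2), -0.24 (Chgb) and 0.22 (Cartpt), none of them called. A link between the letters and the ratios was not tested.

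Likeness across arrays was described with Pearson's r over the 10 ratios of each member's brightest spot, among 1718 names above empty spots. The arrays share the same 2 pools, so r follows how the arrays differed and not how animals did. Dye orientation was not removed first, so a difference between orientations also enters r. For Scg2 the most alike were DNA methyltransferase 3A (r = 0.89) and glucose-6-phosphatase, transport protein 1 (r = 0.89). For Chgb they were RIKEN cDNA 1500019M23 gene and expressed sequence AI837181, both at 0.87. For Cpe they were adducin 3 (r = 0.98) and ribosomal protein L27 (r = 0.95). For Nts they were lysophospholipase 1 (r = 0.86) and RIKEN cDNA 6820402O20 gene (r = 0.84), and for Cartpt ATP synthase subunit g (r = 0.79) and high mobility group nucleosomal binding domain 1 (r = 0.77). Between members r ran from -0.65 (Cpe and Nts) to 0.52 (Scg2 and Cpe). The r of a most alike name was picked as the highest of 1718, so the r between members is not set against it.

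The labelled nucleus was checked against its markers. None of the 4 PVN peptide genes with a spot, Avp, Oxt, Sst and Trh, was above empty spots, while 5 of 7 general neuronal genes, 5 of 8 astrocyte genes and 3 of 5 oligodendrocyte genes were; 0 of 4 microglial, 0 of 2 arcuate and 1 of 3 thalamic genes were. The thalamic gene was Tcf7l2, a transcription factor gene, at 0.56 ± 0.35 and above 0 on 10 of 10 arrays. The neuronal genes had a median log2 ratio of -0.02. Their summed raw intensity ran from 46060 to 94512 in the separated and from 45973 to 91293 in the non-separated pool. These sums were not normalised and each pool was read in both dyes. The ranges therefore include the difference between dyes and do not compare the pools. The neuronal genes also differed: Map2 lay at 0.12 ± 0.40, Stmn2 at 0.10 ± 0.23, Nefm at 0.04 ± 0.28, Tubb3 at -0.02 ± 0.29 and Syt1 at -0.20 ± 0.20. Eno2, not above empty spots, lay at -0.37 ± 0.20 and above 0 on 0 of 10 arrays. The oligodendrocyte genes above empty spots were Cnp at 0.25 ± 0.89, Mobp at 0.20 ± 0.47 and Mbp at -0.43 ± 0.27. The astrocyte genes had a median of -0.31, below 0 on each of the 10 arrays, but they differed. Of the 5 above empty spots, Aldoc lay at -0.73 ± 0.35, Gja1 at -0.51 ± 0.22, Slc1a2 at -0.42 ± 0.65, Slc1a3 at -0.02 ± 0.22 and Glul at 0.18 ± 0.74. Gjb6, not above empty spots, lay at -1.22 ± 0.40 and above 0 on 0 of 10 arrays. Of the 8 astrocyte genes, 2 passed the fold rule and 3 the limma rule, beside 0.254% and 0.364% of all spots. The limma rule also called 1 of 3 thalamic genes, and no other marker was called. The summed raw intensity of the astrocyte genes ran from 47568 to 101262 in the separated and from 60494 to 99997 in the non-separated pool. These sums have the same limit as the neuronal ones. The part of these cell types in the ratios of Chgb, Furin or Cartpt was not tested. Median raw spot intensity over the arrays was 286 to 529 in Cy5 and 436 to 1011 in Cy3.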

How the data were processed

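The 10 array files hold spot and local background intensity on a linear scale, deposited by the authors as quantified with a fixed circle and no background subtraction, per the file headers. The authors' deposited value table holds log2 ratios for 19025 spots, and how it was normalised was not given in the sources used. Its columns correlated at -0.96 to -0.92 with the ratios computed here. Background was corrected with normexp (offset 50) and a global loess was fitted to each array without weight on 1374 control spots (limma 3.58.1, R 4.3.3). Local background was 0 for 91.6 to 100% of spots. Ratios were turned to separated over non-separated and fitted with lmFit and eBayes, dye orientation as a term. File dates split the arrays as dye orientation does, so the 2 cannot be told apart. The fit was tested on simulated data, the outcome of which is not reported here. Members, lists and tests were chosen with earlier results of these data known. Named were every member spot, called list genes, list genes above empty spots and Pcsk2, Pam, Chga, Vgf, Scg3, Ntsr2, Avp, Oxt and Trh; Scg5, Sst and the markers given were named after their values were seen.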

Additional observations from a re-analysis of the deposited data

Results flagged for a closer look

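In groups of 5 arrays of 1 dye orientation, single arrays stood far from the other 4 in 5 of 36 sets of ratios or intensities. About 1.8 of 36 would be given by chance. Ratio and intensity of a spot come from the same arrays, so the sets are not independent. Whether 5 exceeds 1.8 was not tested. The first Cpe spot had a log2 ratio of -0.28 on replicate 4 of the Cy3 orientation, where the others lay between 0.05 and 0.13. On the same array its mean log2 intensity was 11.35, against 13.71 to 14.55 on the others, with raw intensities of 2130 in Cy5 and 3134 in Cy3. The mean log2 intensity of the first Scg2 spot was 11.73 on replicate 2 of the Cy5 orientation, against 12.01 to 12.07. On that same array the second Cpe spot had a log2 ratio of 0.64, against 0.03 to 0.19. The third Cpe spot had a mean log2 intensity of 5.96 on replicate 5 of the Cy5 orientation, against 6.61 to 6.80, with raw intensities of 16.9 and 37.0. The cause of these single values was not tested.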

How the results depend on the processing

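No member spot was called under any of the 24 alternatives of the fold rule or the 23 of the limma rule that were run. Over all spots the fold rule gave 58 calls; it gave 1601 with the Cy5 orientation only, 686 with the Cy3 orientation only, 14 and 16 among spots above the 95th percentile of empty spots in both or either channel, 0 above the 99th and 8 at 2-fold. Single-orientation counts rest on 5 arrays, and the filters test fewer spots. Higher against lower calls were 17 and 41, 9 and 43 with print-tip loess, 911 and 690 with Cy5 only and 354 and 332 with Cy3 only. The limma rule gave 83 calls, and 448 (Cy5 only), 0 (Cy3 only), 272 (both channels, 137 higher and 135 lower where all spots gave 20 and 63), 267 (either channel) and 2 (99th percentile); leaving out 1 array gave 25 to 43. The replicate block gave 9; same-numbered arrays did not vary together (correlations of -0.027 to 0.022, 1 of 5 best with its own number), so the numbers were not taken as pairs.

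Pathway list calls by the fold rule, 0 in the main setting, were 5 with Cy5 only (Igf1, Nmb, Rab27a, Scg5 and Trh) and 1 with Cy3 only (Avp), and 0 to 1 on leaving out 1 array (Avp, without replicate 5 of the Cy5 orientation). By the limma rule they were 1 with print-tip loess and 1 in the authors' table (Furin), 2 with median centring and 2 above empty spots in both channels (Furin and Resp18), 3 in either channel (with Scg5) and 4 with Cy5 only. The list median ran from -0.14 to 0.01, above 0 with Cy3 only. Member spots above empty spots were 4, or 0 at the 99th percentile, which 22 of all spots passed. The sign of spot 1 of Cpe turned under 1 alternative, that of spot 3 under 4 and that of Nts under 2, none of them called.

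The 5 differences on the same array kept their sign under all 20 alternatives run for each. With 5 arrays the smallest exact p is 0.0625, so no single-orientation value could pass. With Cy5 only they were 0.38 (Scg2 minus Chgb), 0.32 (Scg2 minus Cpe), -0.51 (Chgb minus Cartpt), -0.46 (Cpe minus Cartpt) and 0.48 (the 2 Scg2 spots); with Cy3 only, 0.43, 0.26, -0.40, -0.23 and 0.33. Cpe minus Cartpt was -0.21 with print-tip loess and -0.20 in the authors' table, and the Scg2 spots 0.36, 0.43 and, with median centring, 0.23; none of these 5 values passed (exact permutation p 0.0527 to 0.205, unadjusted). The cause was not tested. Both Cartpt spots, spot 2 of Scg2 and spots 2 and 3 of Cpe are limited, as none of them passed the rule on empty spots. With 1 pool per group, no replication of animals was available.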
